A study of Mus musculus with 10 samples.

Results

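Heat shock proteins, their J-protein cochaperones and the cytosolic chaperonin were examined in translating mRNA of mossy cell-enriched populations from dorsal and ventral hippocampus. Members were the protein-coding genes whose symbol begins with Hspa, Hspb, Hspd, Hspe, Hsph, Hsp90, Dnaja, Dnajb, Dnajc or Cct2 to Cct8, together with Tcp1. The rule found 83 of the 54838 genes in the files, and 70 of them exceeded 1 CPM (the usual per-library scaling of read counts by the total on genes) in at least 2 libraries and were tested. They were 14 HSP70 and HSP110 genes, 3 HSP90 genes, 7 small HSP genes of which 2 were tested, the HSP60 and HSP10 genes, 45 J-protein genes of which 39 were tested, 9 CCT ring genes of which 7 were tested, and 3 genes named after heat shock proteins that belong to none of these families.

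The series holds 5 Dorsal and 5 Ventral libraries made by translating ribosome affinity purification (TRAP), in which ribosomes carrying an EGFP-tagged L10a subunit are precipitated with the mRNA they are translating. Every library came from MC-TRAP mice (Drd2-Cre;Eef1a1LSL.eGFPL10a/+) on a C57BL/6 background at about 10 weeks of age, male per the study's methods, so that dorsal and ventral groups carry the same alleles and differ in the piece of hippocampus taken. Tissue of 5 mice was pooled for each library, the ventral subiculum was cut away, and p-values therefore measure the spread between pools, not between mice. Per the study's methods, dorsal and ventral parts were cut from the hippocampi of the same mice. Which dorsal and ventral pools share mice is not stated, and the main test did not pair them. Drd2-Cre drives the tag in hilar mossy cells and also in other Drd2-expressing hippocampal cells.

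HSP70 and HSP90 are ATP-driven chaperones. HSP70 binds short exposed stretches of unfolded protein, J-proteins bring it clients and trigger its ATPase through their J domain, and HSP90 finishes the folding of kinases, receptors and other clients. HSP60 with HSP10 forms the folding chamber of mitochondria, and the CCT ring, built of different subunits, folds actin and tubulin in the cytosol. Heat shock factor binds repeats of the letters GAA and TTC, called heat shock elements, in promoters of inducible members.

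Each dorsal library had 11138676 to 16779821 counts assigned to genes and each ventral library 11618625 to 20594364, and 3 counts, the floor for a gene at 0, correspond to 0.142 to 0.282 CPM. Floors cover counting error only, since the reads were amplified and carry no molecular identifiers. Read pairs on no gene took 21.8 to 33.9% of dorsal and 11.6 to 19.3% of ventral read pairs, without overlap. Messenger RNAs of the mitochondrial genome took 2773 to 3524 CPM in dorsal and 447 to 1257 CPM in ventral libraries, also without overlap. Summed astrocyte markers (6 genes) reached 1834 to 2088 CPM in dorsal and 660 to 1212 CPM in ventral libraries, with 4 genes called higher in dorsal and 1 in ventral. Summed oligodendrocyte markers (5 genes, 3 called) reached 2104 to 2485 against 725 to 1378 CPM. Granule cell markers (3 genes, 1 called) reached 269 to 337 CPM in dorsal and 115 to 264 CPM in ventral libraries. Interneuron markers (6 genes, 2 called higher in ventral) overlapped between groups, at 3121 to 4239 and 3759 to 5001 CPM. Mossy cell markers (6 genes, 5 tested) summed to 394 to 490 against 1028 to 1260 CPM, with Calb2 and Satb1 called higher in ventral and Cyp26b1 in dorsal, while Drd2 itself stood at a mean of 28.1 CPM in dorsal and 20.7 CPM in ventral and did not pass. Microglial markers (5 genes, 1 called higher in dorsal) reached at most 24.8 CPM and endothelial markers (4 genes, none past the adjusted p by edgeR or DESeq2, 1 at an unadjusted p below 0.05) at most 45.1 CPM, and Cldn5 and the mossy cell marker Csf2rb2 were at 0 counts in at least 1 library. In such a mixture, fewer cells of a type and less RNA per cell cannot be told apart. The part of the no-gene reads, of the mitochondrial mRNA and of the other cell types in the results below was not tested, apart from a fit with the no-gene share as a covariate, which is given where it bears on a result.

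Promoters were read from the RefSeq table of GRCm38.p6, which covers 250 bases before to 50 bases after each start and matched 68 of the 83 members. A heat shock element of 3 units, in which GAA, TTC and GAA or TTC, GAA and TTC follow each other with 2 free bases between them, occurred on either strand in the promoter of 4 of the 68 members (5.88%) and of 0.662% of all 27025 genes in the table. Those 4 were Hspe1, Hspd1, Dnajb6 and Hsph1. The 2-unit form GAANNTTC, which the longer forms contain, occurred in 16 of the 68 members (23.5%) and in 9.04% of all genes, and the form TTCNNGAA, searched after the data were seen, in 7 members (10.3%) and 9.60% of genes. Called members in the table without any of these forms were Dnajb1, Hspa4l, Dnajc9, Hspbp1 and Hspbap1. Some matches are not printed, among them those of Hspb8, Dnajc10 and Dnajc27 (dorsal higher by sign) and of Cct2, Cct5 and Hspb6 (ventral higher by sign). The windows below are thus a selection of the matches. Each is written 5′ to 3′ on the strand of its gene, with the matching letters in capitals.
Hspe1, strand +, chr1:55088053-55088082: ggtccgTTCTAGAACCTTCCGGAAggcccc
Hspd1, strand -, chr1:55088053-55088082: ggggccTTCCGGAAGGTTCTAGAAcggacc
Dnajb6, strand +, chr5:29735844-29735872: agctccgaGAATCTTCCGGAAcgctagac
Hsph1, strand -, chr5:149636280-149636308: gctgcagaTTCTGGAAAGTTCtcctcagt
Hspa1a, strand -, chr17:34972228-34972285: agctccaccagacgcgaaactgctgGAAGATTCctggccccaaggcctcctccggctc
Hspa1b, strand -, chr17:34959310-34959367: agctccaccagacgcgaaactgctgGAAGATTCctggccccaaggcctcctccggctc
Dnaja4, strand +, chr9:54699444-54699501: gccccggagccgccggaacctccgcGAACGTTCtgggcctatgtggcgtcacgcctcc
Dnajb4, strand -, chr3:152193846-152193884: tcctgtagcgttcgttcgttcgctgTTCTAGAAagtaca
Dnaja1, strand +, chr4:40722333-40722362: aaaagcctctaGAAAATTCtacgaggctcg
Hspe1 and Hspd1 lie head to head, so that both lines show the same bases on opposite strands, and the capitals there hold 2 overlapping elements of 3 units each. Counted from a RefSeq start as base 1, the capitals begin 89 bases before the start of Hspe1 and 144 bases before a start of Hspd1. Another RefSeq start of Hspd1 lies upstream of the capitals, and its window held none of these forms. The printed matches of Hspe1, Hspd1, Dnajb6, Hsph1 and Dnaja1 overlap annotated exons. The windows of Hspa1a and Hspa1b are the same letter for letter. A match of letters is a description and not a measured binding site.

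Across the 70 members tested, 8 were called ventral-enriched, which took an adjusted p below 0.05 in edgeR's quasi-likelihood test together with group means, each plus 1 CPM, that differed by more than 0.58 on the log2 scale. That count stood near the background, since 9.85% of all genes tested and 10.3% of protein-coding genes were called ventral-enriched. Among the 8, Hspa1a met the expression filter only through its ventral libraries. None was called dorsal-enriched, against 15.7% of all genes tested and 11.4% of protein-coding genes. At an unadjusted p below 0.05 edgeR left 4 members higher in dorsal, and DESeq2 called 0 dorsal-enriched and 7 ventral-enriched. By the adjusted p alone, 24 members were higher in ventral, 3 were higher in dorsal and 43 did not pass, where 16.1% of protein-coding genes were higher in ventral and 15.4% in dorsal. Dorsal and ventral libraries did not overlap for 10 members higher in ventral, against 9.58% of protein-coding genes, and for 1 member higher in dorsal, against 8.5%. The median log2 fold change of dorsal over ventral was −0.30 over the members tested and −0.0044 over all genes tested. Of all counts on genes, members took 0.958 ± 0.052% (SD, n = 5) in the dorsal group and 1.14 ± 0.038% (SD, n = 5) in the ventral group, without overlap.

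**Figure D1:**
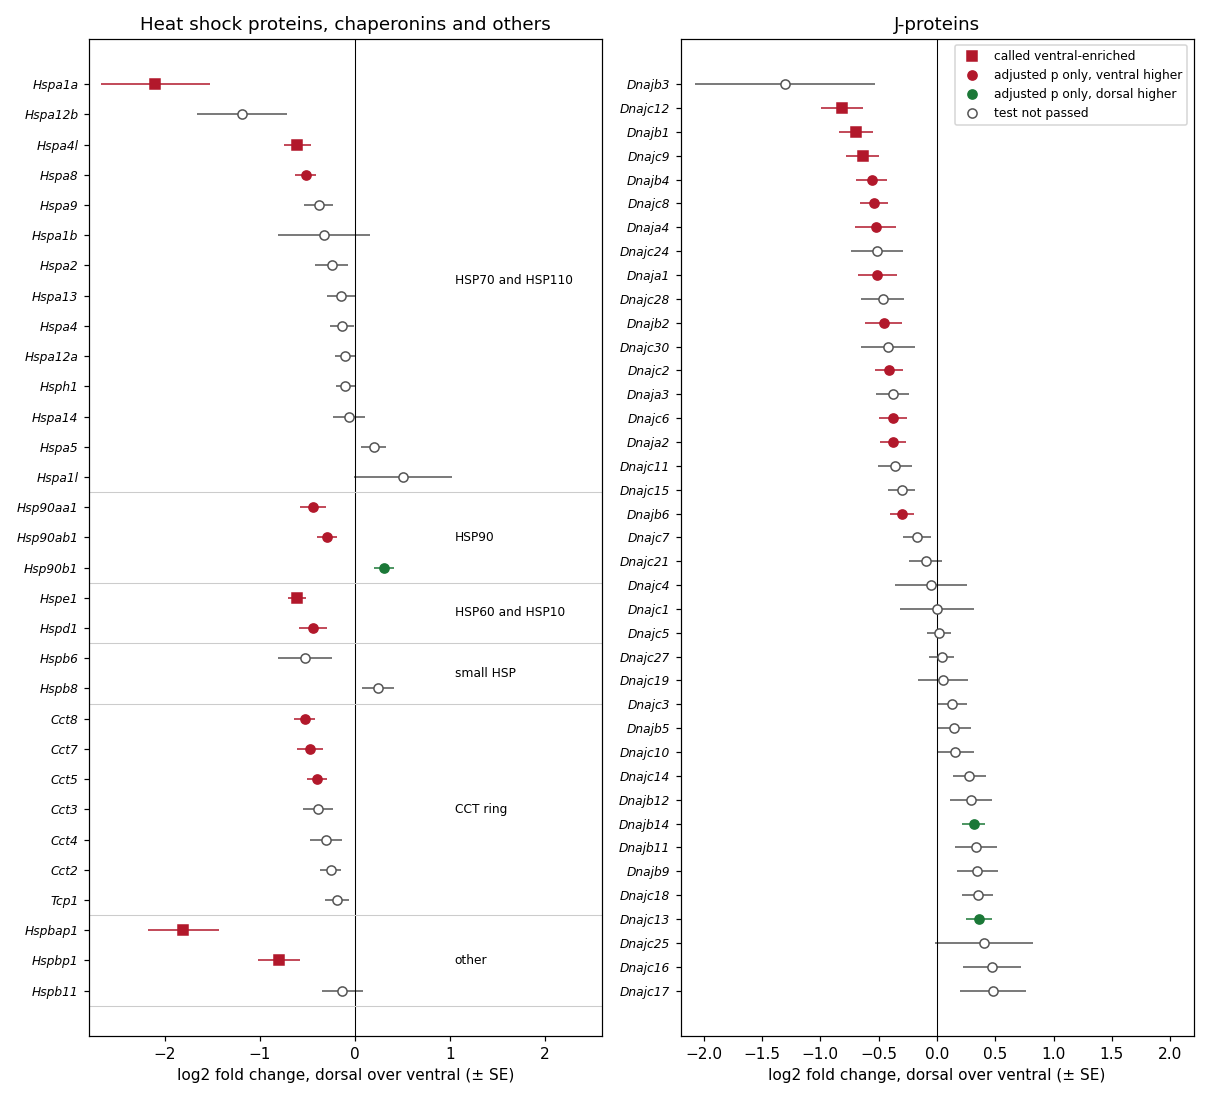
Each point is a tested member, placed by its log2 fold change of dorsal over ventral on the horizontal axis with its standard error as a bar, grouped by family on the left and with the J-proteins on the right. Squares mark the 8 members called ventral-enriched, filled circles the members past the adjusted p alone, and open circles the 43 that did not pass. All 7 subunits of the CCT ring lie left of 0, and Hsp90b1 is the only HSP90 gene right of it.

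Dorsal replicate 1 stood apart from the other dorsal libraries among these genes. It held the highest dorsal level of 33 of the 70 members tested, where dorsal replicate 5 held that of 3. The same ranks were not counted over all genes, so whether this is particular to the members was not tested. Dorsal replicate 1 also had the lowest share of read pairs on no gene of the dorsal group (21.8%) and the highest share of counts on members (1.04%). Without it 14 members were called ventral-enriched, the same 8 and 6 more, among them Hspa8, Hspd1, Cct8, Dnaja1 and Dnajc8. That fit called 9.47% of all genes tested ventral-enriched. With the share of read pairs on no gene as a covariate, an alternative added after the data were seen, only Hspe1 and Hspa4l were still called, and the median of all members tested was −0.13. The same fit called 2.02% of all genes tested ventral-enriched, against 9.85% without the covariate. Because that share does not overlap between the groups, it and the part of the hippocampus cannot be told apart here.

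Among HSP70 and HSP110 genes, 3 of 14 were higher in ventral by the adjusted p and 2 of them were called. Over protein-coding genes these shares were 16.1% and 10.3%. None of the 14 was higher in dorsal by either criterion, with 0 also at an unadjusted p below 0.05 and 0 by DESeq2. The median log2 fold change was −0.19, which turned to 0.13 with the no-gene share as a covariate. Hspa8, the constitutive HSC70 that also uncoats clathrin vesicles, had the highest level per length of the family, at 110 CPM per kb of exon. Its level in dorsal libraries 1 to 5 was 462, 381, 368, 375 and 353 CPM, and in ventral libraries 1 to 5 it was 569, 635, 435, 537 and 601 CPM. Only dorsal replicate 1 rose above the lowest ventral library. The log2 fold change was −0.52 (SE 0.11, adjusted p = 0.0036), which fell short of the threshold for a call with all libraries and passed it without dorsal replicate 1. Of the 50-base stretches of its transcript, 52.7% occur in other annotated genes, most of them in Gm15459.

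Hspa4l, an HSP110-type relative that exchanges nucleotide on HSP70, lies on chromosome 3 (40744495 to 40796103, GRCm38). It reached 363, 441, 365, 354 and 374 CPM in dorsal and 555, 448, 831, 521 and 538 CPM in ventral libraries. The groups did not overlap, but dorsal replicate 2 at 441 CPM and ventral replicate 2 at 448 CPM nearly met, and ventral replicate 3 lay far above the rest. The log2 fold change was −0.61 (SE 0.14, adjusted p = 0.0059), and the call was lost without dorsal replicate 4 and without ventral replicate 3 because the ratio then missed the fold threshold. Its paralogs Hspa4 and Hsph1, which act on HSP70 in the same way, had log2 fold changes of −0.14 and −0.10 and did not pass the test.

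Hspa1a, a classical heat-inducible HSP70 gene on chromosome 17 (34969190 to 34972156), was called from very few reads. Its counts ran from 1 to 83 per library, and its levels were 0.564, 1.10, 0.0681, 0.781 and 0.314 CPM in dorsal and 4.61, 2.73, 0.507, 2.47 and 1.89 CPM in ventral libraries. Of the ventral libraries, 4 exceeded every dorsal library and replicate 3 did not. Only replicate 2 of the dorsal libraries exceeded 1 CPM, so the gene met the expression filter through its ventral libraries. The log2 fold change was −2.10 (SE 0.57, adjusted p = 0.011), and it turned to 0.46 with the no-gene share as a covariate. Of the 50-base stretches of its longest transcript, 58.8% also occur in Hspa1b, its near-identical neighbor, which reached 0.838 ± 0.525 CPM in dorsal against 1.07 ± 0.397 CPM in ventral and did not pass. Reads from shared stretches cannot be assigned to 1 gene of the pair, and the counts may miss them. The counted reads of both, summed, reached 1.40 ± 0.888 CPM in dorsal against 3.51 ± 1.74 CPM in ventral (SD, n = 5 each). Hspa1l overlaps annotated exons of other genes over 71.9% of its exonic length and is uncertain for that reason.

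Hspa5, the HSP70 of the endoplasmic reticulum (ER) also known as BiP, did not follow Hspa8. It reached 193, 114, 126, 155 and 141 CPM in dorsal and 136, 124, 126, 122 and 128 CPM in ventral libraries, with groups that overlapped and a log2 fold change of 0.20 (SE 0.13, adjusted p = 0.26). Hspa9, the mitochondrial HSP70, had a log2 fold change of −0.38 (SE 0.15, adjusted p = 0.065) and reached 121 CPM in dorsal replicate 1 while the other dorsal libraries stayed at or below 82.5 CPM. The testis-linked but brain-expressed Hspa2 (184 ± 42.2 against 219 ± 43.9 CPM), Hspa12a (311 ± 44.7 against 335 ± 17.8 CPM), Hspa13 and Hspa14 did not pass either, nor did Hspa12b with a value of −1.19 (adjusted p = 0.065).

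**Figure D2:**
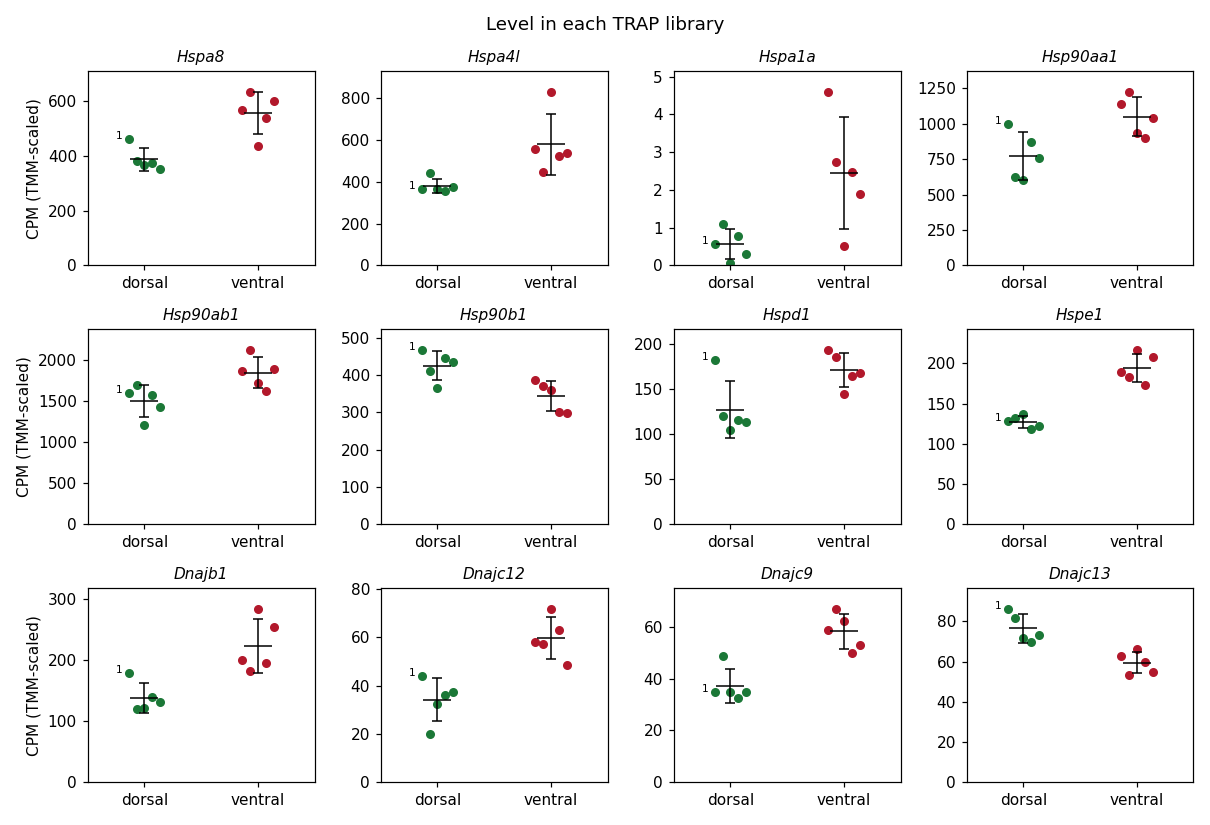
The 12 panels give the TMM-scaled level in CPM of 12 members in each dorsal (green) and ventral (red) library, with the mean and SD as bars and the dorsal replicate 1 library marked 1. Dorsal replicate 1 lies nearest the ventral libraries for Hspa8, Hspd1, Dnajb1 and Hsp90aa1, and the dorsal mean is the higher one for Hsp90b1 and Dnajc13, of which Dnajc13 alone has groups that do not overlap.

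All 3 HSP90 genes passed the adjusted p, 2 higher in ventral and 1 higher in dorsal, and none passed the fold threshold in edgeR or DESeq2. Over protein-coding genes, 16.1% were higher in ventral and 15.4% in dorsal by the adjusted p. With the no-gene share as a covariate, both ventral-higher genes turned, Hsp90aa1 to 0.21 and Hsp90ab1 to 0.012, and the median of the 3 genes went from −0.30 to 0.21. Hsp90ab1, the constitutive cytosolic HSP90 beta on chromosome 17 (45567775 to 45573271), had the highest level per length of all members, at 556 CPM per kb. Dorsal libraries held 1595, 1692, 1207, 1571 and 1418 CPM and ventral libraries 1857, 2115, 1717, 1618 and 1887 CPM, so that dorsal replicate 2 lay above ventral replicate 4. The log2 fold change was −0.30 (SE 0.10, adjusted p = 0.038). Hsp90aa1, the inducible cytosolic HSP90 alpha, held 1000, 626, 600, 868 and 758 CPM in dorsal and 1139, 1226, 932, 900 and 1043 CPM in ventral libraries, and dorsal replicate 1 exceeded the lowest ventral ones. Its log2 fold change was −0.44 (SE 0.14, adjusted p = 0.025). The adjusted p of Hsp90ab1 rose to between 0.058 and 0.098 without dorsal replicate 3, 4 or 5 or ventral replicate 1, 2 or 5, and that of Hsp90aa1 to between 0.0501 and 0.067 without dorsal replicate 2, 3 or 5 or ventral replicate 2 or 5. The Hsp90aa1 transcript shares 58.5% of its 50-base stretches with other annotated genes, most of them with Gm12346.

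Hsp90b1, the ER form known as GRP94, lies on chromosome 10 (86690209 to 86705509) and went the other way. It held 468, 412, 367, 447 and 435 CPM in dorsal and 387, 372, 360, 302 and 300 CPM in ventral libraries. Only dorsal replicate 3 fell among the ventral libraries. The log2 fold change was 0.31 (SE 0.10, adjusted p = 0.034), but it was 0.012 (adjusted p = 0.94) once GC content and exonic length were corrected for, under which the median of all genes moved to −0.14, and its adjusted p was between 0.059 and 0.088 without dorsal replicate 1, 4 or 5 or ventral replicate 4 or 5. Within a library, the ratio of Hsp90b1 to Hsp90ab1 was 0.286 ± 0.0254 in dorsal and 0.188 ± 0.0217 in ventral (SD, n = 5 each), and the lowest dorsal ratio, 0.244, lay above the highest ventral one, 0.210. The same ratio for HSP70, Hspa5 over Hspa8, was 0.375 ± 0.0514 in dorsal and 0.232 ± 0.0357 in ventral, and its lowest dorsal value, 0.300, lay above the highest ventral one, 0.289. Both ratios were chosen after their values were seen and carry no test.

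**Figure D3:**
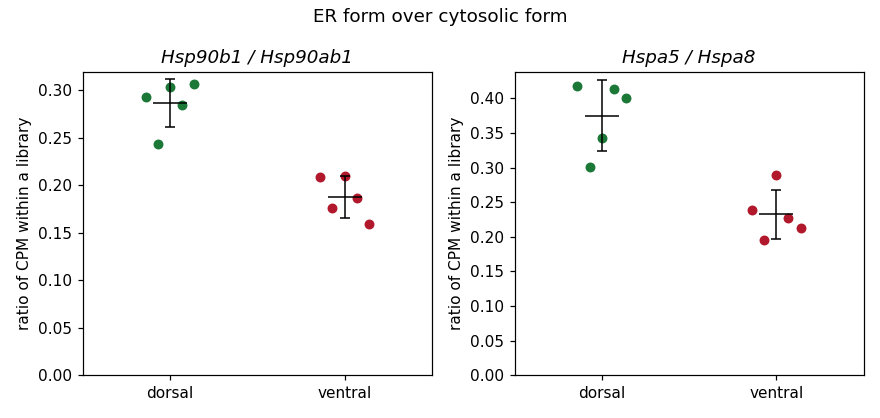
Points give, for each library, the CPM of the ER form divided by that of the cytosolic form, on vertical axes that start at 0, with the mean and SD of dorsal (green) and ventral (red) libraries as bars. The dorsal libraries lie above the ventral ones for HSP90, at 0.244 or more against 0.210 or less, and for HSP70, at 0.300 or more against 0.289 or less.

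The HSP60 and HSP10 genes were both higher in ventral by the adjusted p, and Hspe1 was called. Over protein-coding genes these shares were 16.1% and 10.3%. Hspe1, which encodes the HSP10 lid of the mitochondrial folding chamber, lies on chromosome 1 (55088132 to 55091307) and held 128, 132, 137, 118 and 122 CPM in dorsal and 189, 184, 217, 173 and 209 CPM in ventral libraries. The groups did not overlap, and the log2 fold change was −0.61 (SE 0.097, adjusted p = 0.00054). The ratio lay close to the fold threshold, and the call was lost with DESeq2's size factors, in DESeq2 and on leaving out any of 4 libraries, while the adjusted p stayed at or below 0.0202 under every alternative run. Hspd1, the HSP60 that forms the chamber, held 183 CPM in dorsal replicate 1 and 105 to 120 CPM in the other dorsal libraries, against 194, 186, 145, 164 and 168 CPM in ventral libraries. Its log2 fold change was −0.44 (SE 0.15, adjusted p = 0.032), and it passed the threshold for a call without dorsal replicate 1. Without any other single library except ventral replicate 3 its adjusted p lay between 0.057 and 0.092. Of its transcript's 50-base stretches, 44.8% occur in other annotated genes, mainly Hspd1-ps3. The stretch printed above, with its overlapping heat shock elements, lies in a promoter window of both genes. Hspe1 did not share the rise of Hspd1 in dorsal replicate 1, where it stood at the middle of the dorsal values.

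Of the 2 small HSP genes tested, neither passed by edgeR, with 0 at an unadjusted p below 0.05 and 0 by DESeq2. Hspb8, which works with Bag3 in clearing aggregates, had the higher level per length (23.0 CPM per kb) and held 45.9, 42.4, 44.4, 60.5 and 49.5 CPM in dorsal and 37.3, 29.4, 51.0, 35.4 and 52.1 CPM in ventral libraries. These groups overlapped, and the log2 fold change was 0.24 (SE 0.17, adjusted p = 0.29). Hspb6, or HSP20, stood at 5.87 ± 1.97 CPM in dorsal and 8.68 ± 2.59 CPM in ventral (log2 fold change −0.53, SE 0.29, adjusted p = 0.17). Hspb1, Hspb2, Hspb3, Hspb7 and Hspb9 were not tested, and Hspb1, the classical HSP27 homolog, had at most 11 counts in a library. The alpha-crystallin Cryab, a small HSP that the symbol rule leaves out, stood at 74.1 ± 16.2 CPM in dorsal and 82.7 ± 21.4 CPM in ventral and did not pass (log2 fold change −0.16, adjusted p = 0.55).

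All 7 CCT ring subunits tested had negative log2 fold changes, from −0.53 to −0.19 with a median of −0.39. Of these, 3 passed the adjusted p, where 16.1% of protein-coding genes were higher in ventral. None passed the fold threshold in edgeR or DESeq2. With the no-gene share as a covariate Cct4 turned to 0.35, the other 6 ran from −0.49 to −0.073, and the median was −0.16. Cct8, the theta subunit with the highest level per length of the ring subunits that met the symbol rule (50.2 CPM per kb), lies on chromosome 16 (87483326 to 87495873). It held 157, 119, 116, 126 and 115 CPM in dorsal and 169, 214, 190, 164 and 178 CPM in ventral libraries, without overlap, and its log2 fold change was −0.53 (SE 0.11, adjusted p = 0.0036). Cct7 (90.1 ± 10.4 against 126 ± 23.2 CPM) had groups that just failed to overlap, with 97.9 CPM in the highest dorsal and 98.0 CPM in the lowest ventral library, and a log2 fold change of −0.48 (adjusted p = 0.016). Cct5 had one of −0.40 (adjusted p = 0.013). Cct3, Cct4, Cct2 and Tcp1 had values of −0.39, −0.30, −0.25 and −0.19 and did not pass, with adjusted p from 0.066 to 0.26. Dorsal replicate 1 held the highest dorsal level of 5 of the 7 subunits, Cct3, Cct4, Cct5, Cct8 and Tcp1, and the lowest of Cct7, at 71.9 CPM against 92.9 CPM or more in the other dorsal libraries. Cct6a, the zeta subunit, is annotated as a processed transcript in the GENCODE release used and thus falls outside the rule. It had a log2 fold change of −0.34 (SE 0.10, adjusted p = 0.023), at 165 ± 21.8 CPM in dorsal and 208 ± 13.0 CPM in ventral, and its level per length, 51.5 CPM per kb, was close to that of Cct8. The testis-type subunit gene Cct6b and Cct8l1 were not tested, with at most 5 and 7 counts in a library.

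**Figure D4:**
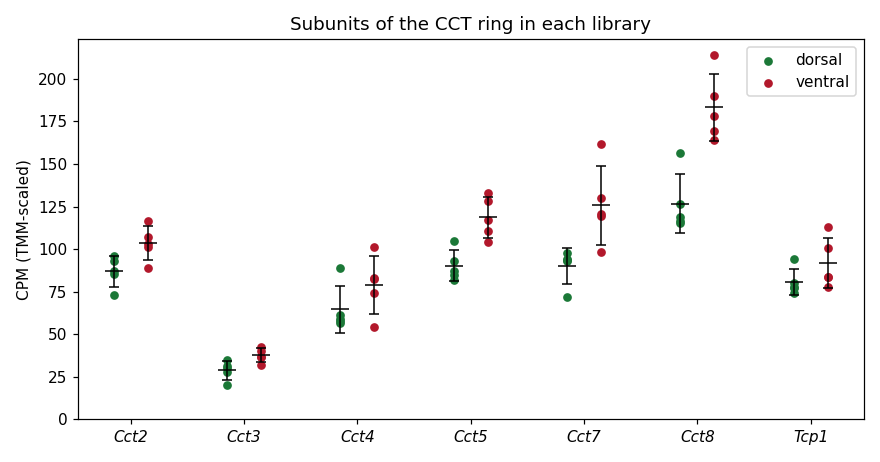
For each of the 7 tested subunits the points give the level in CPM in the 5 dorsal (green) and 5 ventral (red) libraries, with mean and SD as bars and the vertical axis starting at 0. The colors are apart for Cct8 and barely so for Cct7, and they overlap for the other 5 subunits.

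Among 39 J-proteins tested, 12 were higher in ventral and 2 in dorsal by the adjusted p, 25 did not pass, and 3 were called ventral-enriched. The called count did not exceed the background, since 10.3% of protein-coding genes were called ventral-enriched. J-proteins are divided by domain content into classes A, B and C, where class A is the closest to bacterial DnaJ and class C members share little beyond the J domain. By the adjusted p, class A had 3 of 4 genes higher in ventral, class B 4 of 10 higher in ventral and 1 in dorsal, and class C 5 of 25 higher in ventral and 1 in dorsal, where the shares of protein-coding genes were 16.1% and 15.4%. Dnaja2, a general cytosolic class A partner of HSC70, had the highest level per length (106 CPM per kb). It held 314, 288, 228, 269 and 279 CPM in dorsal and 427, 340, 385, 334 and 301 CPM in ventral libraries, and only dorsal replicate 1 rose above the lowest ventral library. Its log2 fold change was −0.38 (SE 0.11, adjusted p = 0.022), with an adjusted p between 0.0508 and 0.062 without dorsal replicate 3, 4 or 5 or ventral replicate 1.

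Grouped by where the proteins work, 8 J-proteins of cytosolic classes A and B had a median log2 fold change of −0.48. By the adjusted p, 7 of them were higher in ventral, against 16.1% of protein-coding genes. These were Dnajb1, Dnajb4, Dnaja4, Dnaja1, Dnajb2, Dnaja2 and Dnajb6, while Dnajb5 stood at 0.15 (adjusted p = 0.45). Dnajb1, also called HSP40 and the main stress-inducible J-protein, was called. It held 180, 119, 122, 140 and 131 CPM in dorsal and 200, 182, 284, 196 and 254 CPM in ventral libraries. The groups did not overlap, but dorsal replicate 1 at 180 CPM nearly met ventral replicate 2 at 182 CPM, and the log2 fold change was −0.69 (SE 0.15, adjusted p = 0.0033). Dnajb4, Dnaja4 and Dnaja1, all inducible relatives, had values of −0.56, −0.53 and −0.51, and Dnaja4 overlaps annotated exons of other genes over 44.1% of its exonic length. Dnajb2 and Dnajb6, which hold back aggregation of polyglutamine and other misfolded proteins, had values of −0.46 and −0.30. Other annotated genes hold 42.8% of the 50-base stretches of Dnajb6 and 28.8% of those of Dnaja1. Dnaja1, Dnaja4, Dnajb2 and Dnajb6 each lost the adjusted p, at 0.0501 to 0.103, on leaving out any of 6 to 8 single libraries, while Dnajb1 and Dnajb4 kept it without any one library. Over all 23 alternatives run, the adjusted p was below 0.05 in 16 for Dnaja1, 14 for Dnaja4, 11 for Dnajb2 and 9 for Dnajb6. With replicate number as a block in edgeR's test, that of Dnajb6 was 0.064.

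The 7 J-proteins of the ER went the other way as a group by sign. Of these, 6 had positive values and the median was 0.29, but only Dnajb14, a membrane J-protein facing the cytosol, passed the test. Dnajb14 held 422, 410, 349, 377 and 379 CPM in dorsal and 307, 349, 351, 271 and 282 CPM in ventral libraries, so that dorsal replicate 3 lay among the ventral ones. Its log2 fold change was 0.32 (SE 0.10, adjusted p = 0.027), which turned to −0.0032 after the correction for GC content and length. Without dorsal replicate 2 or ventral replicate 4 or 5 its adjusted p was 0.0507, 0.073 or 0.066. Dnajb9 and Dnajb11, which serve BiP in the ER lumen, had values of 0.35 and 0.34 with adjusted p of 0.14 and 0.17. After the same correction Dnajb9, Dnajc10 and Dnajc3 also turned, to −0.081, −0.022 and −0.090. Dnajb11 and Dnajb12 stayed positive, at 0.24 and 0.31. The median of all genes under that correction was −0.14, below each of these values. Of the 6 J-proteins of mitochondria, 5 had negative values with a median over all 6 of −0.37, and none passed by edgeR's adjusted p or by DESeq2, while 4 had an unadjusted p below 0.05. Dnajc28, of these, had groups that did not overlap.

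The 3 J-proteins of synaptic vesicles and endocytosis split. Dnajc6, or auxilin, which recruits HSC70 to clathrin coats, was higher in ventral (295 ± 27.2 against 383 ± 66.8 CPM, log2 fold change −0.38, adjusted p = 0.027), and its adjusted p lay between 0.058 and 0.070 without dorsal replicate 3 or 5 or ventral replicate 1 or 2. Dnajc13, or RME-8, which works on endosomes, was higher in dorsal and was the only member tested whose dorsal libraries all lay above all ventral ones. It held 86.3, 81.8, 71.5, 69.9 and 73.1 CPM in dorsal and 63.0, 53.5, 66.4, 59.7 and 55.0 CPM in ventral libraries, with a log2 fold change of 0.36 (SE 0.11, adjusted p = 0.024). After the correction for GC content and length this value was 0.16 (adjusted p = 0.22), and without ventral replicate 4 or 5 the adjusted p was 0.052 or 0.062. Dnajc5, the cysteine string protein of synaptic vesicles, stood at 379 ± 55.7 CPM in dorsal and 374 ± 20.8 CPM in ventral and did not pass (log2 fold change 0.016, adjusted p = 0.92).

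Dnajc12 and Dnajc9 completed the called J-proteins. Dnajc12, which assists folding of the aromatic amino acid hydroxylases, lies on chromosome 10 (63382443 to 63410576) and held 44.2, 20.2, 32.6, 36.2 and 37.6 CPM in dorsal and 58.3, 57.3, 71.9, 62.9 and 48.6 CPM in ventral libraries. The groups did not overlap, and its log2 fold change was −0.82 (SE 0.18, adjusted p = 0.0040). Dnajc9, a J-protein that is also a histone chaperone, held 34.7, 48.6, 35.0, 32.3 and 34.8 CPM in dorsal and 58.6, 66.9, 62.3, 50.0 and 52.9 CPM in ventral libraries, again without overlap (log2 fold change −0.64, SE 0.14, adjusted p = 0.0043). Dnajc8, a spliceosome component, and Dnajc2, which sits on ribosomes, were higher in ventral by the adjusted p alone, with log2 fold changes of −0.54 and −0.41. Of J-proteins not tested, Dnajc22 and Dnajc5b had no counts in any library, and Dnajb7, Dnajb8, Dnajb13 and Dnajc5g had at most 17 in a library. Dnajb13 stood at 0.393 to 1.16 CPM in dorsal and 0 to 0.277 CPM in ventral libraries, without overlap and on 0 to 17 counts a library.

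Of the remaining 3 genes, 2 were called ventral-enriched, where 10.3% of protein-coding genes were. Hspbp1 encodes a nucleotide exchange factor of HSP70 and stood at 11.3, 37.8, 21.8, 27.0 and 23.4 CPM in dorsal and 40.6, 54.7, 35.9, 44.3 and 42.0 CPM in ventral libraries. Dorsal replicate 2 lay above the lowest ventral library, and the log2 fold change was −0.80 (SE 0.22, adjusted p = 0.014). Hspbap1, named after the small HSP it binds, had few reads, with 0.659, 1.95, 2.66, 2.16 and 2.04 CPM in dorsal and 10.7, 6.52, 3.29, 7.66 and 5.48 CPM in ventral libraries. The groups did not overlap (log2 fold change −1.81, SE 0.38, adjusted p = 0.0031). Hspb11, an intraflagellar transport protein despite its name, had a value of −0.13 (adjusted p = 0.67).

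The members past the test shared few features that the symbol rule did not use. The 24 higher in ventral had a median exonic GC content of 45.7% and the 43 not passing one of 47.6%, against 49.5% over protein-coding genes tested. The 3 higher in dorsal had a median GC content of 42.4% and a median exonic length of 11938 bases, against 3760 bases for the 24. Under the correction for GC content and length, all 3 dorsal-higher members lost the adjusted p and 21 members were called ventral-enriched, with the median of all genes at −0.14 and 15.7% of all genes tested called ventral-enriched. Among tested members with a promoter in the table, GAANNTTC occurred in 6 of the 19 higher in ventral, in 0 of the 3 higher in dorsal and in 6 of the 36 not passing. The 12 tested members that hold it had a median log2 fold change of −0.38 and the 46 that do not had one of −0.16. Hspe1 and Hspd1 count as separate members in both comparisons, although their match is the same stretch of bases. Hsph1, with an element of 3 units, did not pass (−0.10). Members not in the promoter table, and so not searched, included Dnajc12, Hspa8, Hsp90aa1 and Hsp90ab1.

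**Figure D5:**
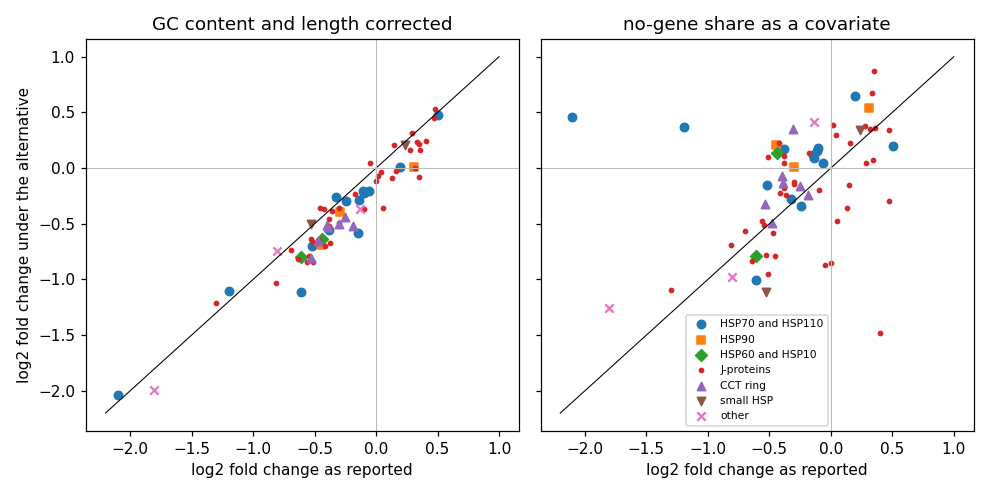
Each symbol is a tested member, with the log2 fold change as reported on the horizontal axis and under an alternative on the vertical axis, and the diagonal marks equal values. With GC content and length corrected (left) most members lie near or below the diagonal. With the share of read pairs on no gene as a covariate (right) they scatter on both sides of 0, and Hspa1a moves from −2.10 to 0.46.

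Other genes of the chaperone pathway were taken from lists by function, and the median was negative in each, nearest 0 for the ER. As background for the counts below, 16.1% of protein-coding genes were higher in ventral and 15.4% in dorsal by the adjusted p. Called were 10.3% and 11.4%. Of 12 HSP70 cofactors, 0 passed by edgeR or DESeq2, 3 had an unadjusted p below 0.05, all lower in dorsal, and the median log2 fold change was −0.25. Bag3, the stress-inducible partner of Hspb8, stood at 9.37 ± 3.65 CPM in dorsal and 14.4 ± 2.37 CPM in ventral (adjusted p = 0.070). Of 13 HSP90 cochaperones, 3 were higher in ventral by the adjusted p and the median was −0.36. Stip1, or HOP, which hands clients from HSP70 to HSP90, did not overlap between groups (66.0 ± 4.84 against 96.9 ± 12.8 CPM, log2 fold change −0.56, adjusted p = 0.0032), and Cdc37 and Chordc1 had values of −0.44 and −0.40.

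Of 9 prefoldin and CCT partner genes, 3 were higher in ventral by the adjusted p, 1 in dorsal, and the median was −0.42. Pfdn4, a subunit of the prefoldin that delivers actin and tubulin to CCT, was called (21.9 ± 2.58 against 46.5 ± 5.58 CPM, log2 fold change −1.09, adjusted p = 0.00014), Vbp1 and Pfdn1 were higher in ventral by the adjusted p alone, and Txndc9 was higher in dorsal (0.56, adjusted p = 0.048). Of 6 mitochondrial chaperone and protease genes, 2 were called ventral-enriched, the protease genes Clpp (−0.85, adjusted p = 0.0033) and Lonp1 (−0.77, adjusted p = 0.0052). Of 6 ER chaperone genes, 1 was called dorsal-enriched, Pdia4 (22.7 ± 2.22 against 14.6 ± 2.98 CPM, log2 fold change 0.66, adjusted p = 0.0092), and their median was −0.0089. Of 4 tested genes for heat shock factors and their binding protein Hsbp1, Hsf2 was called ventral-enriched by edgeR (39.1 ± 11.8 against 59.2 ± 9.78 CPM, log2 fold change −0.60, adjusted p = 0.026) and not by DESeq2, and Hsf1, the main stress-responsive factor, did not pass (0.097, adjusted p = 0.76).

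Genes with proteasome symbols, from Psma to Psmg, stand for the other arm of protein quality control. Of 47 tested, 32 were higher in ventral by the adjusted p and 21 were called, with a median log2 fold change of −0.54. Over protein-coding genes these shares were 16.1% and 10.3%. The symbols also took in Psmc3ip, which is not a proteasome subunit and did not pass. Of 10 immediate early genes, which respond to neuronal activity and to handling, Fos was called ventral-enriched (−1.76, adjusted p = 0.00061), Arc was called dorsal-enriched (0.81, adjusted p = 0.00069), and Egr1 was higher in dorsal by the adjusted p alone (0.58, adjusted p = 0.00057).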

How the data were processed

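TRAP RNA of 5 dorsal and 5 ventral pools was amplified with the Ovation kit, sequenced as paired ends, aligned by the authors with STAR 2.5.2b to GRCm38 and counted with HTSeq 0.7.2, per the submitters' processing notes. What the authors deposited are counts per Ensembl gene, as whole numbers without normalization. The annotation release and strand setting are not given in the sources used here, so overlapping genes are uncertain. Rows for read pairs on no gene (11.6 to 33.9% of pairs) and ambiguous pairs were left out of library sizes.

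Gene symbols, positions, lengths and GC content were taken from GENCODE M21 (GRCm38), which matched 54809 of 54838 identifiers. Counts were analyzed in R 4.3.3 with edgeR 4.0.16: genes above 1 CPM in at least 2 libraries (16806, of which 13549 protein-coding), TMM factors, the quasi-likelihood test and Benjamini-Hochberg adjustment over all tested genes. CPM are TMM-scaled. Standard errors are the log2 fold change over the square root of F. A call needed an adjusted p below 0.05 and group means, each plus 1 CPM, more than 0.58 apart on the log2 scale. Alternatives used DESeq2 1.42.0 and mgcv 1.9.3, whose smooth trends in GC content and length entered as offsets. The test was checked on simulated data. No pair of libraries was a duplicate.

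The members, gene lists and tests were chosen with earlier results of these data known. Named with the value in every library were called members (for J-proteins at most 5 per direction) and the member of each family with the highest level per length. Hspa5, Hspa1b, Hsp90aa1, Hsp90b1, Hspd1, Dnajb14 and Dnajc13, and the ratios of ER to cytosolic forms, were added after their values were seen, and other members are given by value or count.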

Additional observations from a re-analysis of the deposited data

Results flagged for a closer look

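A library was set apart where its gap to the nearest library of its group exceeded Dixon's critical value for 5 samples. This held in 21 of 140 groups of 5 libraries, where chance gives about 1 in 20, and 10 of the 21 were dorsal replicate 1 and 7 dorsal replicate 2. The same count was not made over all genes.

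Dorsal replicate 1 was the highest dorsal library for Hspa8 (462 CPM), Hspa9 (121 CPM), Hsph1 (421 CPM), Hspd1 (183 CPM), Cct8 (157 CPM), Cct4 (89.1 CPM), Tcp1 (94.0 CPM), Dnajc15 (98.5 CPM) and Dnajc30 (28.9 CPM), and the lowest for Cct7 (71.9 CPM). Dorsal replicate 2 was the highest for Hspa4l (441 CPM), Dnajc9 (48.6 CPM), Dnajc16 (69.3 CPM), Dnajc1 (30.6 CPM) and Hspa1b (1.75 CPM), and the lowest for Hspa14 (23.6 CPM) and Dnajb3 (0.130 CPM). Among ventral libraries, replicate 3 was the highest for Hspa4l (831 CPM), replicate 1 for Dnajc28 (17.4 CPM) and replicate 2 for Hspa14 (41.9 CPM) and Dnajb3 (7.13 CPM). The Dnajb3 and Hspa1b levels rest on few reads.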

How the results depend on the processing

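Deviations of same-numbered dorsal and ventral libraries correlated at −0.020 to 0.043. These values cannot tell whether same-numbered pools came from the same mice, so the pairing stays unknown. With the replicate block, 8 members were called ventral-enriched, 0 dorsal-enriched, and 25 were higher in ventral and 3 in dorsal by the adjusted p. Among dorsal-higher members, Dnajc18 (0.026) passed in place of Hsp90b1 (0.0508). Among ventral-higher members, Hspa9 (0.031) and Dnaja3 (0.0489) came in and Dnajb6 (0.064) dropped out. Class medians moved by less than the spread between libraries.

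Leaving out each library in turn gave 7 to 14 members called ventral-enriched (14 without dorsal replicate 1) and 0 called dorsal-enriched. By the adjusted p it gave 15 to 28 higher in ventral (15 without dorsal replicate 5) and 0 to 4 in dorsal (0 without ventral replicate 4 or 5). Medians ran from −0.27 to −0.10 for HSP70 and HSP110, −0.34 to −0.22 for HSP90, −0.25 to 0.0029 for small HSP, −0.27 to −0.13 for J-proteins, −0.43 to −0.29 for the CCT ring and −0.60 to −0.49 for HSP60 and HSP10. Dnajc5 ran from −0.068 to 0.068 and turned to −0.068 without dorsal replicate 1 and −0.018 without ventral replicate 3.

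The GC and length correction gave 21 called ventral-enriched, 0 dorsal-higher by the adjusted p, and medians of −0.36 for J-proteins, −0.52 for the CCT ring and −0.72 for HSP60 and HSP10. With the replicate block added these were 20, 0, −0.35, −0.52 and −0.72. Dnajc5 turned to −0.075 and −0.082, Dnajb14 to −0.0032 without the block, and Hspa5 to −0.0041 with it.

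The no-gene share as a covariate, chosen after the data were seen, gave 2 called ventral-enriched, 2 higher in ventral and 1 in dorsal by the adjusted p, and medians of 0.13 for HSP70 and HSP110, 0.21 for HSP90, −0.16 for the CCT ring and −0.33 for HSP60 and HSP10. Single values turned to 0.21 for Hsp90aa1, 0.012 for Hsp90ab1, 0.13 for Hspd1, 0.10 for Dnaja1, 0.049 for Dnajc6, 0.35 for Cct4 and 0.46 for Hspa1a. This covariate differs between the groups without overlap.

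Without an expression filter 1 member was called dorsal-enriched, and the medians were 0.24 for all 7 small HSP genes and −0.055 for J-proteins, since low genes then enter. CPM above 1 in 5 libraries gave −0.11 for J-proteins, and an adjusted p below 0.01 left 10 ventral-higher and 0 dorsal-higher members. The cause of the other shifts was not tested. Depth limits Hspa1a, Hspa1b, Dnajb3 and Hspbap1.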
